A study of Mus musculus with 6 samples.

Results

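The PDZ-LIM family joins a PDZ domain at the front of the protein to LIM domains at its end. Its 7 genes here are Pdlim1, Pdlim2, Pdlim3, Pdlim4, Pdlim5, Pdlim7 and Ldb3, taken by gene name from a table of 55420 rows, in which each name had a single record. The PDZ domain of these proteins docks on alpha-actinin, the crosslinker of actin filaments at the Z-disc of muscle and along stress fibres, while the LIM domains hold kinases and other partners. The ALP subfamily (Pdlim1 to Pdlim4) carries a single LIM domain, and the Enigma subfamily (Pdlim5, Pdlim7 and Ldb3) several. Ldb3, Pdlim3 and Pdlim5 are known from the Z-disc of striated muscle, and Pdlim1, Pdlim2, Pdlim4 and Pdlim7 also from stress fibres and cell adhesions of other cells.

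RNA was sequenced from C2C12 cells, mouse myoblasts in permanent culture, which form myotubes in low serum. There were 3 libraries labelled FHL3 KO, a knockout of the muscle LIM protein FHL3, and 3 WT libraries. All were grown in 10% fetal bovine serum and collected on day 4 of differentiation in 2% horse serum. No clone is named in the labels, and an effect of the clone cannot be told apart from that of the genotype. Nothing there states separate cultures for the libraries either, so a p-value reflects the spread of these samples alone, which may be technical.

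Values are FPKM, fragments or reads per kilobase of transcript and per size of the library, and a call is an adjusted p below 0.05 in limma's moderated test on log2(FPKM + 1), adjusted over the 12528 genes whose mean reached 1 FPKM in either group. FPKM summed to 477577 to 494176 in the libraries labelled FHL3 KO and 424987 to 473369 in WT. Fhl3 itself was higher: the libraries labelled FHL3 KO had 57.2, 53.5 and 58.9 FPKM, against 27.8, 30.0 and 33.7 FPKM in WT (log2 change 0.87, SE 0.092, limma adjusted p = 0.000547). The RNA of the targeted gene was thus not lower under the FHL3 KO label, and an RNA level does not show whether the protein was lost. A single value per gene does not show which exons were read, and "rose" and "fell" below describe the libraries as labelled. In WT replicate 1, 63 genes were above 1 FPKM and over 10 times their level in each other library, against 0 to 6 such genes in the others. The liver transcript Alb, at 56.0 FPKM there, was among them. Of the tested genes 5112 were called, of which 48.2% rose, or 36.3% of 4649 with every library scaled to the same sum, which put the median log2 change of all genes at -0.10 in place of -0.01.

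Upstream regions of Pdlim3, Ldb3 and Pdlim5 are shown because Pdlim3 and Ldb3, the members best known from striated muscle, rose by different amounts, and Pdlim5 did not pass the test. Each is the 250 bases before the RefSeq start (GRCm38.p6), 5′ to 3′ on the strand of the gene: Pdlim3 at chr8:45885237-45885486 (plus strand), Ldb3 at chr14:34588682-34588931 and Pdlim5 at chr3:142395697-142395946 (both minus strand). Capitals mark matches on either strand to the motifs named below.
Pdlim3: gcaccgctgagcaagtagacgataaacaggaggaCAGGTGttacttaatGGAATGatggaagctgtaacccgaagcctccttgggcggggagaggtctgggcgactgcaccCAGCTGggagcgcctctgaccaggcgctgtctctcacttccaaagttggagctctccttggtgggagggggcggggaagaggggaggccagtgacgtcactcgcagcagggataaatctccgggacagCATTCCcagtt
Ldb3: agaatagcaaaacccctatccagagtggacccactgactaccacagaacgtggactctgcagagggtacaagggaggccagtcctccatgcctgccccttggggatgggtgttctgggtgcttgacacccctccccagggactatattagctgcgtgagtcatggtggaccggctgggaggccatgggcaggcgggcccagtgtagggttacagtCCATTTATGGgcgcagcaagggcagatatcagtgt
Pdlim5: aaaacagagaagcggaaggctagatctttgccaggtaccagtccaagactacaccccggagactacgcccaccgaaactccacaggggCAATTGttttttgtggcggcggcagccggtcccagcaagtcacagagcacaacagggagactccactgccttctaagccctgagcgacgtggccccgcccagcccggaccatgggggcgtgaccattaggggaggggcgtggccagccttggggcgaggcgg

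RefSeq upstream sequences were matched for 6 of the 7 members, all except Pdlim2. The motifs, chosen after the family's values were known, were the E-box CANNTG, which myogenic factors such as Myod1 bind, its form CAGCTG, the M-CAT element CATTCC of TEAD factors, the YY1 core CCATNTT, the box TATAAA, the CArG box of serum response factor and the MEF2 box. The Pdlim3 window held E-boxes at bases -216 and -139 from the start, the second of them a CAGCTG, and M-CAT matches at -201 and -11. The GENCODE start of Pdlim3 lies upstream of the RefSeq start, so the match at -11 falls inside the GENCODE transcript. The Ldb3 window held a CArG box, CCATTTATGG, at -35 (the same letters lie at -109 from a second RefSeq start), and the Pdlim5 window an E-box at -162. Of 32817 windows of the same length, 66.2% held an E-box, 13% a CAGCTG, 12.6% an M-CAT match, 12.4% the YY1 core and 1.47% a CArG box. No letters of the YY1 core or the MEF2 box, which 2.92% of windows held, were found in the windows of the members. The windows of Pdlim1, Pdlim4 and Pdlim7 held no match to any of the motifs, and a second Pdlim5 window held the box TATAAA (12.4% of windows) at -78 on the other strand. By the GENCODE gene bounds, most of the Pdlim1 and Pdlim7 windows and all of the second Pdlim5 window lie inside the gene. A match is a description of letters and not evidence of binding.

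As a family the PDZ-LIM genes were higher in the libraries labelled FHL3 KO. By limma 5 of the 7 rose, Pdlim7, Ldb3, Pdlim2, Pdlim4 and Pdlim3, and none fell, also at an unadjusted p below 0.05, against a background of 40.8% of tested genes called, 19.7% that rose and 21.2% that fell. The libraries labelled FHL3 KO lay wholly above WT for 6 of the 7, against 26.9% of tested genes with that order and 53.8% without overlap in either order. The median log2 change of the members was 0.40, beside -0.01 for all tested genes. Summed over the family, the libraries labelled FHL3 KO had 1216, 1129 and 1196 FPKM, against 840.0, 872.6 and 903.6 FPKM in WT, a difference of 308.3 FPKM (exact two-sided permutation p = 0.1, the smallest that 3 against 3 allows). The number of members that rose depended on the treatment of the values: it was 4 without any single library other than replicate 2 labelled FHL3 KO, 4 with every library scaled to the same sum, 3 after quantile normalization and all 7 once each library's trend with exon length was removed. In RNA of whole cultures, fewer cells of a type and less RNA per cell cannot be told apart.

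**Figure D1:**
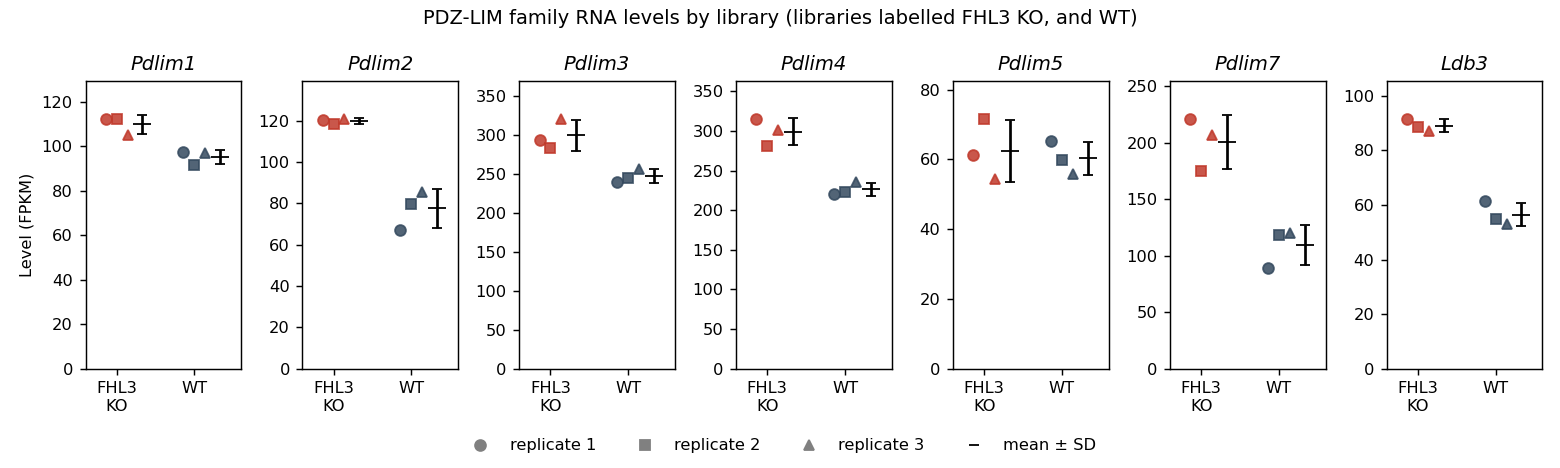
Level of each PDZ-LIM gene (FPKM, linear axis from 0, with its own scale per gene) in the 3 libraries labelled FHL3 KO and the 3 WT libraries. Points are libraries and black marks the mean ± SD; the groups are apart for every gene except Pdlim5.

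In the Enigma subfamily, Pdlim7 rose most of all members. Pdlim7, or Enigma, binds beta-tropomyosin through its PDZ domain and receptor kinases through its LIM domains. The libraries labelled FHL3 KO held 221.3, 174.5 and 206.4 FPKM of Pdlim7, against 88.8, 118.4 and 120.1 FPKM in WT. All 3 libraries labelled FHL3 KO were above all 3 WT libraries, and WT replicate 1 was the lowest of the 6. The log2 change was 0.88 (SE 0.14, limma adjusted p = 0.00313), a 1.84-fold rise with a 95% interval of 1.46 to 2.32. Without WT replicate 1 it was 0.74 (limma adjusted p = 0.00567). Of the tested genes 3.39% had a larger log2 change.

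Ldb3, also called ZASP or Cypher, is a core Z-disc protein whose human gene is mutated in myofibrillar myopathy and cardiomyopathy. In the libraries labelled FHL3 KO its level was 91.7, 88.5 and 87.1 FPKM, against 61.4, 55.0 and 53.1 FPKM in WT. The groups did not overlap, and the mean was 89.1 ± 2.33 FPKM in the libraries labelled FHL3 KO and 56.5 ± 4.33 FPKM in WT (SD, n = 3 each). The log2 change of 0.65 (SE 0.081) had the smallest adjusted p of the family (limma adjusted p = 0.00105) and equals a 1.57-fold rise, with a 95% interval of 1.38 to 1.79. GENCODE M21 lists 7 coding transcripts of Ldb3 from 1499 to 5119 bases, long and short forms that the single value does not separate.

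Pdlim5, or ENH, tethers protein kinase C at the Z-disc and holds the differentiation inhibitor Id2 in the cytoplasm. The libraries labelled FHL3 KO had 61.2, 71.7 and 54.3 FPKM of Pdlim5, against 65.2, 59.9 and 55.7 FPKM in WT. The groups overlapped, and the highest and the lowest library were both labelled FHL3 KO. The log2 change was 0.04 (SE 0.12, limma adjusted p = 0.787), with a 95% interval of the fold change from 0.85 to 1.24, so a rise as large as that of Ldb3 lies outside it. This holds for the values as deposited: with the exon length trend removed the log2 change was 0.25 (limma adjusted p = 0.0339), and with length and GC content removed 0.37 (limma adjusted p = 0.00432). With 8877 bases of exon Pdlim5 has the longest gene model of the family.

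In the ALP subfamily, Pdlim2 had the largest log2 change in the values as deposited, though not with length and GC content removed, where it was 0.48, against 0.56 for Pdlim3 and 0.49 for Pdlim1. Pdlim2 sits on stress fibres and, in the nucleus, marks the NF-kB subunit p65 for degradation. Its FPKM was 120.4, 118.2 and 121.0 where the label was FHL3 KO, against 67.2, 79.6 and 85.7 FPKM in WT. The groups did not overlap, WT replicate 1 was again the lowest, and the SD was 1.49 FPKM in the libraries labelled FHL3 KO and 9.45 FPKM in WT. The log2 change was 0.63 (SE 0.10, limma adjusted p = 0.00286), and 0.53 without WT replicate 1 (limma adjusted p = 0.00442).

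Pdlim4, or RIL, is an actin stress fibre protein that binds alpha-actinin. Libraries labelled FHL3 KO had 315.7, 281.0 and 301.2 FPKM of Pdlim4, against 220.7, 223.2 and 235.7 FPKM in WT. The groups did not overlap, and the nearest libraries were replicate 2 labelled FHL3 KO and WT replicate 3. The log2 change of 0.40 (SE 0.083, limma adjusted p = 0.00806) was called in all but quantile normalization, where it was 0.18 (limma adjusted p = 0.117), and was 0.21 with length and GC content removed (limma adjusted p = 0.0494).

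Pdlim3, for which the ALP subfamily is named, binds alpha-actinin 2 at the Z-disc of skeletal and heart muscle. For Pdlim3 the libraries labelled FHL3 KO had 293.4, 283.1 and 320.7 FPKM, against 239.6, 244.9 and 256.6 FPKM in WT. The groups did not overlap, but the log2 change was only 0.27 (SE 0.084, limma adjusted p = 0.0355). The call held under 6 of 15 alternatives, and the adjusted p over them ran from 0.00994 to 0.784. Among those that ended it were scaling to the same sum (0.16, limma adjusted p = 0.127), quantile normalization (0.03, adjusted p = 0.784) and the loss of any single library other than replicate 2 labelled FHL3 KO (adjusted p from 0.054 to 0.123). After removal of length and GC content the change was 0.56 (limma adjusted p = 0.00994).

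Pdlim1, known as CLP36 or Elfin, links alpha-actinin of stress fibres to the kinase Clik1. With the FHL3 KO label the libraries had 112.4, 112.4 and 105.0 FPKM of Pdlim1, against 97.2, 91.5 and 96.8 FPKM in WT. Although the groups did not overlap, the log2 change of 0.21 (SE 0.073) did not pass (limma adjusted p = 0.0557), and its 95% interval in fold was 1.03 to 1.30. It was called after removal of the exon length trend (0.26, limma adjusted p = 0.0205) and of length with GC content (0.49, adjusted p = 0.00273).

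**Figure D2:**
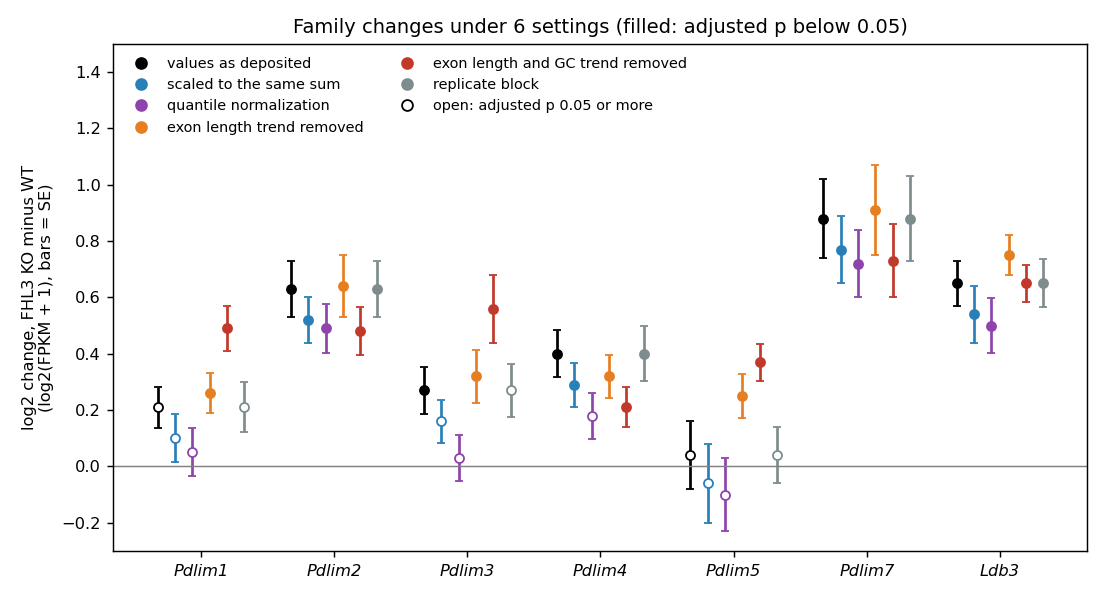
Log2 change of each member (libraries labelled FHL3 KO minus WT, log2(FPKM + 1), bars SE) from the limma fit over all genes under 6 settings, with filled points where the adjusted p was below 0.05. Pdlim7, Ldb3 and Pdlim2 stay between 0.48 and 0.91 and filled throughout. Pdlim1, Pdlim3, Pdlim4 and Pdlim5 are filled or open depending on the setting, with Pdlim4 open only after quantile normalization.

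The order of the members by level, a comparison per length if the values are FPKM, was alike in both groups at the top and changed below. In the libraries labelled FHL3 KO, Pdlim3 (mean 299.1 ± 19.4 FPKM, SD, n = 3) and Pdlim4 (299.3 ± 17.4) overlapped, followed without overlap by Pdlim7 (200.7 ± 23.9), Pdlim2 (119.9 ± 1.49), Pdlim1 (109.9 ± 4.28), Ldb3 (89.1 ± 2.33) and Pdlim5 (62.4 ± 8.76). In WT, Pdlim3 (247.0 ± 8.69) was above Pdlim4 (226.5 ± 8.05) in every library, Pdlim7 (109.1 ± 17.6) overlapped Pdlim1 (95.2 ± 3.19), Pdlim2 (77.5 ± 9.45) came next, and Pdlim5 (60.3 ± 4.80) overlapped Ldb3 (56.5 ± 4.33). Ldb3 was above Pdlim5 in all libraries labelled FHL3 KO and below it in all WT libraries. All members were well expressed, with 1.98% (Pdlim3) to 9.89% (Pdlim5) of tested genes at a higher mean level.

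Because shares of the summed family level do not depend on the size of the library, they were compared next. They rest on the reading of the values as FPKM. Pdlim7 took 18.2%, 15.5% and 17.3% of the family FPKM in the libraries labelled FHL3 KO, against 10.6%, 13.6% and 13.3% in WT. Pdlim2 took 10.2% ± 0.28 in the libraries labelled FHL3 KO and 8.87% ± 0.78 in WT (SD, n = 3 each). These were the members whose share was higher without overlap. The share of Pdlim3 was lower without overlap, at 25.3% ± 1.37 in the libraries labelled FHL3 KO and 28.3% ± 0.23 in WT, as was that of Pdlim1, at 9.33% ± 0.59 and 10.9% ± 0.57. The ALP subfamily together held 70.2% ± 0.86 in the libraries labelled FHL3 KO and 74.1% ± 0.74 in WT. Each of these had an exact two-sided permutation p of 0.1, the smallest possible, and 0.16 after adjustment over 8 shares, so none passes 0.05. The shares of Pdlim4, Pdlim5 and Ldb3 overlapped (exact p = 0.2 each). These shares depended on length and GC content. With both removed, the differences of Pdlim1 and Pdlim3 turned to 0.14 and 1.58 percentage points (exact p = 0.6 each). The Pdlim2 difference was then 0.066, against 1.29 in the values as deposited (exact p = 0.9), and that of Pdlim7 was 2.55, against 4.49 (exact p = 0.1). The Pdlim4 difference was -4.79, against -0.63 (exact p = 0.1).

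**Figure D3:**
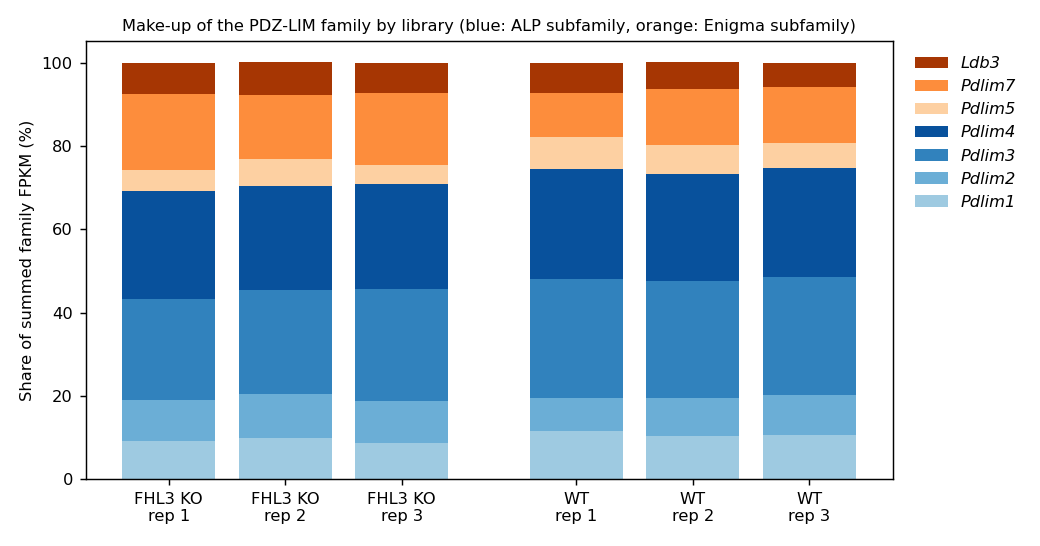
Share of each member in the summed FPKM of the family (%), stacked to the full bar for each library, with the libraries labelled FHL3 KO on the left and WT on the right. The Pdlim7 band is 15.5% to 18.2% of the bar in the libraries labelled FHL3 KO and 10.6% to 13.6% in WT.

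Of the alpha-actinins, to which the PDZ domains bind, Actn2 alone passed the test. Actn2, the main Z-disc alpha-actinin of heart and skeletal muscle, rose to 54.9 ± 3.46 FPKM in the libraries labelled FHL3 KO, against 11.3 ± 0.16 FPKM in WT (log2 change 2.19, limma adjusted p = 6.93e-06). The other alpha-actinins were not called: Actn3 of fast fibres was at 357.3 ± 19.2 FPKM in the libraries labelled FHL3 KO and 317.2 ± 24.4 FPKM in WT, Actn1 at 101.8 ± 4.07 and 95.8 ± 5.06 FPKM, and Actn4 at 105.6 ± 7.25 and 120.3 ± 1.30 FPKM (limma adjusted p = 0.177, 0.392 and 0.0908). Set against Actn2, in ratios added after the values were seen, Pdlim3, Ldb3 and Pdlim5 were lower in the libraries labelled FHL3 KO. Actn2 rose 4.56-fold, and 0.176% of tested genes had a larger log2 change, so nearly any gene set against it would be lower. The ratios to Actn2 therefore restate its rise and are not a result about the members. The FPKM ratio of Pdlim3 to Actn2 was 5.71, 5.14 and 5.50 in the libraries labelled FHL3 KO, against 21.1, 22.1 and 22.6 in WT. That of Ldb3 to Actn2 was 1.63 ± 0.15 in the libraries labelled FHL3 KO and 5.02 ± 0.37 in WT, and that of Pdlim5 to Actn2 was 1.14 ± 0.19 and 5.36 ± 0.42. Each ratio was apart between the groups (exact two-sided p = 0.1, also after adjustment over 6 ratios, the smallest possible).

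In a list of other Z-disc genes and partners, among them beta-tropomyosin (Tpm2), 7 of 17 tested rose and none fell by limma (over the alternatives 5 to 9 and 0 to 2). Of all tested genes 19.7% rose and 21.2% fell. In the list 1 gene, Actn4, was lower at an unadjusted limma p below 0.05, and the median log2 change was 0.19. The 7 were Actn2, Csrp3, a LIM protein of the Z-disc (217.4 ± 36.0 FPKM in the libraries labelled FHL3 KO and 64.7 ± 8.42 FPKM in WT), Myoz2, which ties calcineurin to alpha-actinin (112.1 ± 5.19 and 37.1 ± 5.35 FPKM), Synpo2l (202.1 ± 17.0 and 97.0 ± 5.17 FPKM), palladin (Palld, 41.5 ± 7.73 and 20.4 ± 2.34 FPKM), the Enigma partner beta-tropomyosin (Tpm2, 835.1 ± 80.2 and 577.9 ± 16.7 FPKM) and Synpo2 (30.5 ± 3.25 and 23.0 ± 3.74 FPKM). Their limma adjusted p values were 6.93e-06 to 0.0451. The Synpo2 call (limma adjusted p = 0.0451) held under 7 of 15 alternatives. Myot, Myoz3 and Nebl of the list were too low to be tested. By size of change the members lay between Palld and Myoz1.

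**Figure D4:**
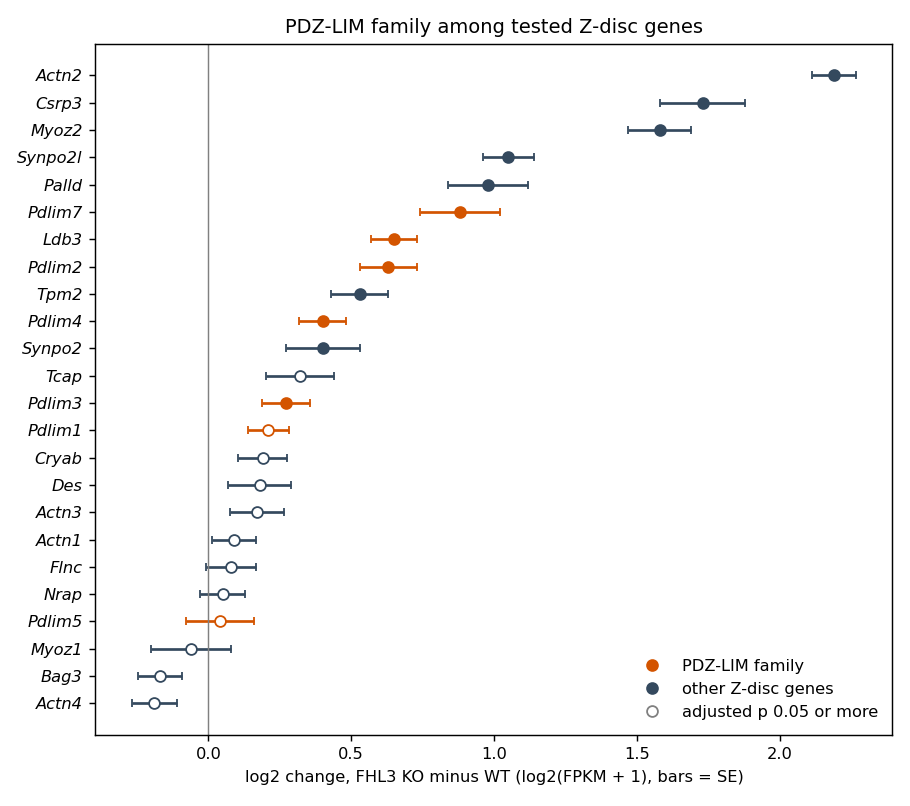
Log2 change (libraries labelled FHL3 KO minus WT, log2(FPKM + 1), bars SE) of the 7 PDZ-LIM genes in orange and the 17 tested genes of the Z-disc list in dark blue, with open points where the limma adjusted p was 0.05 or more. Actn2 is highest at 2.19, Pdlim7 leads the family at 0.88 and Pdlim5 is at 0.04.

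LIM genes outside the family were set beside it. Of the other proteins with both a PDZ and a LIM domain, the actin-regulating kinase Limk1 fell to 23.0 ± 2.72 FPKM in the libraries labelled FHL3 KO, against 31.7 ± 1.04 FPKM in WT (log2 change -0.45, limma adjusted p = 0.0103). Limk2 was at 15.4 ± 0.59 FPKM in the libraries labelled FHL3 KO and 15.1 ± 0.99 FPKM in WT, and Lmo7 at 33.8 ± 4.79 and 29.1 ± 3.62 FPKM, neither called (limma adjusted p = 0.84 and 0.23). Of 18 tested LIM genes of adhesions and stress fibres 4 rose and 5 fell (over the alternatives 3 to 7 and 5), with a median log2 change of 0.02, beside 19.7% and 21.2% of all tested genes, so the list's share was near the background. Ablim3, an actin-binding LIM protein, rose to 28.1 ± 1.62 FPKM in the libraries labelled FHL3 KO, against 9.86 ± 0.32 FPKM in WT, and the adhesion scaffold Pxn to 49.5 ± 1.46, against 30.0 ± 0.57 FPKM. The actin-binding adhesion protein Lasp1 fell to 65.2 ± 2.80 FPKM in the libraries labelled FHL3 KO, against 92.8 ± 2.01 FPKM in WT. The limma adjusted p values of Ablim3, Pxn and Lasp1 were 5.18e-05, 0.000412 and 0.00179.

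Among the signalling partners of the family, 11 of 19 were high enough to test. Of these 1 rose and 4 fell (over the alternatives 1 to 3 and 1 to 4), beside 19.7% and 21.2% of all tested genes. Their median log2 change was 0.04. Id2, which Pdlim5 binds, rose to 21.8 ± 2.56 FPKM in the libraries labelled FHL3 KO, against 5.20 ± 0.69 FPKM in WT (log2 change 1.88, limma adjusted p = 8.91e-05). Mdm2, a ubiquitin ligase that Pdlim7 binds, fell to 34.1 ± 3.66 FPKM in the libraries labelled FHL3 KO, against 47.6 ± 6.40 FPKM in WT (limma adjusted p = 0.0187). The kinase subunit Prkaa1 fell to 16.3 ± 2.25, against 23.9 ± 3.83 FPKM, and the phosphatase Ptpn13 to 2.79 ± 0.38, against 4.16 ± 0.73 FPKM, with limma calls (adjusted p = 0.0221 and 0.0383) that held under 9 of 15 and 6 of 14 alternatives. The p65 gene Rela was at 46.0 ± 3.36 FPKM in the libraries labelled FHL3 KO and 39.4 ± 0.87 FPKM in WT and was not called (limma adjusted p = 0.0627). Tbx5 and Stat4 were listed at 0 in every library.

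Differentiation markers moved with the family, and their part in its change was not tested. The counts below stand beside 19.7% of all tested genes that rose and 21.2% that fell by limma. Of 10 myotube markers 8 rose and none fell by limma (8 and 0 in each alternative), none also at an unadjusted p below 0.05. Their summed level was 10389 to 10821 FPKM in the libraries labelled FHL3 KO, against 4503 to 5022 FPKM in WT. The largest part of it was Acta1, at 5461 ± 236.1 FPKM in the libraries labelled FHL3 KO and 1927 ± 84.4 FPKM in WT. Of 7 tested markers of undifferentiated or cycling myoblasts 3 rose and 3 fell, at 105.9 to 123.3 FPKM in sum in the libraries labelled FHL3 KO, against 117.8 to 142.9 FPKM in WT. Smooth muscle markers split into 1 that rose and 2 that fell of 6 tested. Their sums were 2780 to 2874 FPKM in the libraries labelled FHL3 KO, against 2273 to 2589 FPKM in WT. Most of these sums came from Des, which is also in the myotube list, and Acta2, neither of them called (limma adjusted p = 0.24 and 0.0949). The defining smooth muscle myosin Myh11 averaged 0 in the libraries labelled FHL3 KO and 0.0072 FPKM in WT. Of 5 tested fibroblast markers 1 rose and 3 fell, with sums of 147.5 to 165.9 FPKM in the libraries labelled FHL3 KO, against 435.1 to 497.7 FPKM in WT, and Thy1 was at 0 throughout. Of 11 markers of vessel, blood, fat, nerve, liver and epithelium, 4 were at 0 throughout and the sums were 0.51 to 0.86 FPKM in the libraries labelled FHL3 KO, against 0.83 to 67.7 FPKM in WT, the highest in WT replicate 1.

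Position on the chromosome set Pdlim3 and Pdlim5 in different surroundings. On chromosome 8, which holds Pdlim3 (45885461 to 45919548, GRCm38), 51.5% of 676 tested genes rose and 7.4% fell, against 17.8% and 22.0% on other chromosomes, and the median log2 change was 0.37. The change of Pdlim3, 0.27, was thus below the median of its chromosome. On chromosome 3, which holds Pdlim5 (142239590 to 142395696), 11.9% of 603 tested genes rose and 33.2% fell, and the median was -0.19, below the 0.04 of Pdlim5. Pdlim7 (chromosome 13, 55495795 to 55513676), Pdlim4 (chromosome 11, 54054928 to 54069014), Pdlim1 (chromosome 19, 40221173 to 40271842), Ldb3 (34526603 to 34588682) and Pdlim2 (70164218 to 70177681, both chromosome 14) lie on chromosomes with medians of 0.01 to 0.06. Within 1 Mb of Pdlim7, 15 of 32 tested genes rose and 2 fell, against 24.7% and 21.6% of the tested genes on chromosome 13. Within 1 Mb of Pdlim2, 7 of 25 tested genes rose and 1 fell, whereas near Pdlim4 1 of 23 rose and 8 fell. Near Pdlim3 2 of 15 rose and 1 fell, and near Ldb3 2 of 8 rose and 2 fell. Near Pdlim1 1 of 10 rose and 2 fell, and near Pdlim5 1 of 5 rose and 3 fell. Over all tested genes 19.7% rose and 21.2% fell. The neighbours of Pdlim7, Dbn1 (log2 change 0.32) and Ddx41 (0.61), rose, whereas both neighbours of Ldb3, Bmpr1a (-0.61) and Wapl (-0.80), fell (limma adjusted p = 0.0131, 0.0016, 0.0175 and 0.0122). The calls of Dbn1 and Bmpr1a held under 11 and 10 of 15 alternatives.

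**Figure D5:**
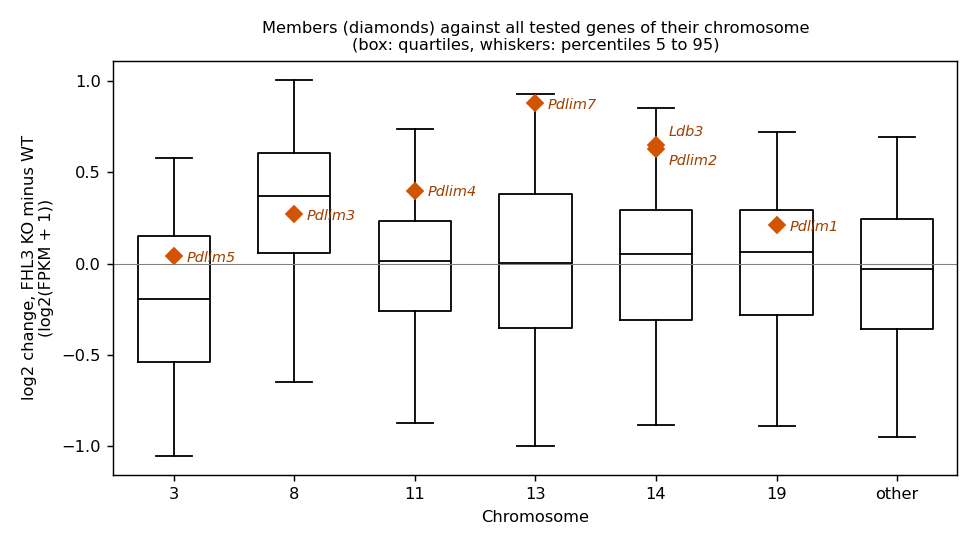
Log2 change (libraries labelled FHL3 KO minus WT, log2(FPKM + 1)) of all tested genes on the chromosomes that hold a member and on all others, with boxes at the quartiles, whiskers at percentiles 5 and 95, and members as diamonds. Pdlim3 at 0.27 sits below the chromosome 8 median of 0.37 and Pdlim5 at 0.04 above the chromosome 3 median of -0.19.

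Across the 6 libraries, the profiles of the members (log2(FPKM + 1) centred on the mean of the gene) were compared with those of 8526 named genes of at least 5 FPKM by Euclidean distance. The nearest genes were Cep20 and Mcm6 for Pdlim1 (0.054 and 0.064), Slc25a29 and Rpl9 for Pdlim2 (0.034 and 0.059), Ppil1 and Pcif1 for Pdlim3 (0.054 and 0.065), Mrpl43 and Itfg2 for Pdlim4 (0.049 and 0.056), Golph3 and Nol11 for Pdlim5 (0.049 and 0.055), Wdr83 and Tmem208 for Pdlim7 (0.11 and 0.13), and Btg1 and Tfdp1 for Ldb3 (0.066 and 0.075). No member was among the nearest genes of another. Within the family the most alike were Pdlim3 and Pdlim4, at a distance of 0.21, and the least alike Pdlim5 and Pdlim7, at 1.20. No background distance was computed, and among so many candidates a near gene is likely for any profile of 6 values. The distances are a description, and shared regulation was not tested.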

How the data were processed

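The study compared RNA-seq libraries of differentiated C2C12 cells, 3 labelled FHL3 KO and 3 WT. The submitters' processing notes name DESeq2 1.28.1, featureCounts 2.0.1, HISAT2 2.2.1, Trim Galore 0.6.6 and build mm10, with no order of use. Annotation, strand setting and how the table arose were not given in the sources used here. Deposited values carry no unit: that the authors scaled them to FPKM was inferred here, from decimals with unequal column sums, and no source states it. Depth is unknown, so no counting interval is given. Of 55420 rows, 7 with repeated gene IDs were left out. GENCODE M21 (GRCm38) matched 94.1% of IDs.

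Genes whose mean reached 1 FPKM in either group were fitted as log2(FPKM + 1) with limma 3.58.1 in R 4.3.3 (mean-variance trend, no covariates, two-sided, Benjamini-Hochberg, threshold 0.05). This scale understates changes of low genes. Shares and ratios were compared by exact permutation (scipy 1.17.1). The fit was tested on simulated data.

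Members and the 9 lists were chosen with earlier results of these data known. Named genes were the members, Fhl3, the 4 of each list with the smallest p, of which a part is given, the nearest tested genes on either side and the 2 most alike in profile. Actn1, Actn3, Actn4, Palld, Synpo2, Tpm2, Ptpn13 and Rela, and the ratios, were added after values were seen. Some genes named by the rule are not reported here. The alternatives comprised no filter, a filter at 5 FPKM, a pseudocount of 0.1, quantile, same-sum and median-of-ratios scaling, removal of length and GC trends (splines, 5 degrees of freedom), the replicate number as a block, and leaving out each library.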

Additional observations from a re-analysis of the deposited data

How the results depend on the processing

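Over the alternatives Pdlim2, Pdlim7 and Ldb3 stayed called and higher in all 15. The calls of all genes, 5112, ranged from 3272 (without WT replicate 2) to 5273 with a library left out. The Pdlim3 log2 change lost its call without a filter on low values (0.27, limma adjusted p = 0.0637), with the replicate block (0.27, adjusted p = 0.0621), scaled to the same sum (0.16) and after quantile normalization (0.03), and ranged from 0.22 to 0.31 with a library left out. Pdlim4 lost its call after quantile normalization (0.18). Pdlim1 gained a call with the exon length trend removed (0.26) or length and GC (0.49), as did Pdlim5 (0.25 and 0.37). Pdlim5, uncalled, turned negative after quantile normalization (-0.10), scaled to the same sum (-0.06) and with a library left out (-0.06 to 0.14). With length and GC removed the share differences (percentage points) turned to 0.14 for Pdlim1 and 1.58 for Pdlim3, and were 0.066 for Pdlim2, 2.55 for Pdlim7, -4.79 for Pdlim4, -0.41 for Pdlim5 and 0.87 for Ldb3. Uncalled genes near 0 also turned: Limk2 (-0.08 with the same sum, -0.04 with length and GC, -0.01 to 0.07 with a library left out), 9930012K11Rik (0.12 by quantile, -0.16 to 0.07 with a library left out), Golph3 (-0.04 by quantile and same sum, -0.03 to 0.15 with a library left out) and Nol11 (-0.04 by same sum, -0.03 to 0.14 with a library left out). The cause was not tested. Deviations of same-numbered libraries from their group means correlated at r = -0.127, -0.0626 and 0.316, which cannot decide whether the numbers pair the samples. The replicate block gave 4759 calls and changed no other member's call. With a library left out, 3 against 2 allows no exact p below 0.2.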

Other observations

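Pdlim2 and Pdlim3 of the ALP subfamily lie beside genes of adaptors that join actin to vinculin and signalling proteins at adhesions and Z-discs. A nearest tested gene of Pdlim2 was Sorbs3, 2.79 kb away, and of Pdlim3 Sorbs2, 57.6 kb away. Neither passed limma. Sorbs2 was at 62.0 ± 9.89 FPKM in the libraries labelled FHL3 KO and 46.4 ± 7.72 FPKM in WT (log2 change 0.41, limma adjusted p = 0.0612, called in 4 of 15 alternatives). Sorbs3 was at 26.8 ± 2.01 FPKM in the libraries labelled FHL3 KO and 30.5 ± 0.33 FPKM in WT (log2 change -0.18, limma adjusted p = 0.106, called in 3 of 15 alternatives). The difference between each member and its neighbour was not tested.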
